A study of Mus musculus with 12 samples.

Results

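The 52 genes described here encode the enzymes and transporters of central carbon metabolism: 21 of glycolysis with glucose and lactate transport, 6 of pyruvate dehydrogenase and the kinases that restrain it, 7 of the pentose phosphate pathway, and 18 of the tricarboxylic acid (TCA) cycle. They were chosen by name, with earlier results of these data known. They were measured in E14 cells, a wild type male mouse embryonic stem cell line of strain 129/Ola, grown without feeders on gelatin in medium with serum and leukemia inhibitory factor. Single-colour Illumina bead arrays covered cells left untreated (0 h) and cells exposed to 50 nM panobinostat (LBH589), an inhibitor of histone deacetylases, for 2 h, 6 h and 18 h, with 3 arrays per group and 12 in all. No vehicle or untreated cells from the later times were analysed here, so exposure, time in culture and handling cannot be told apart. The labels do not say whether the 3 replicates were separate cultures of this line, so p-values measure the spread between these arrays, which may be technical.

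Of the 52 genes, 48 had a probe under their name and 43 were detected on at least 3 of the 12 arrays, and these 43 are among the 11445 genes tested. Hk2, Gpi1, Eno1 and G6pdx had no probe named for them, and Hk1, Pdk2, Pgd, Rpe and Sdha had probes that were not detected on enough arrays. Of the 52 genes, those for hexokinase, glucose phosphate isomerase and the dehydrogenases of the oxidising pentose phosphate branch were therefore not measured. Related genes outside the 52, Hkdc1, H6pd and the enolases Eno2 and Eno1b, were tested among the further pathway genes. Between 16813 and 18111 probes per array were detected at a detection p-value under 0.05, log2 signals correlated at 0.971 to 0.989 within groups, and the number of arrays limits the precision, with a median SE of a log2 change of 0.2. The cells carried the markers of their label: 11 of 12 pluripotency markers, Pou5f1, Sox2 and Nanog among them, were detected on all arrays of every group. The mean log2 signal of these 11 markers lay between 9.42 and 10.06 on the 18 h arrays and between 11.20 and 11.70 on the 0 h arrays, with 9 of them lower at 18 h and 8 at 6 h. Of the markers of other cell types, 3 of 8 for fibroblasts, 4 of 8 for blood and endothelium, 6 of 8 for trophectoderm, 5 of 8 for endoderm and 3 of 8 for neural cells were detected on at least 3 arrays. Col1a2, Col3a1, Dcn, Ptprc, Gata4, Foxa2, Pax6 and Sox1 were not. Marker means were higher in the fibroblast list (6.22 to 6.88 at 18 h, against 5.22 to 5.68 at 0 h) and in the neural list at 18 h (6.69 to 7.04, against 5.59 to 6.03 at 0 h). Called higher at 18 h were Thy1 (log2 change 2.22) and Pdgfrb (0.60, near background) of fibroblasts, and Map2 (2.04) and Zic1 (0.72, near background) of neural cells. Cdx2 (1.92) of trophectoderm and Sox17 (0.88) of endoderm were called higher too. Pecam1, listed under blood and endothelium and detected on 3 of 3 arrays at 0 h, was called lower (-2.13). Whether Pecam1 marks endothelium here was not tested. Pdgfrb and Zic1 were detected on 0 arrays at 0 h and passed the detection filter through exposed arrays alone. Their calls, and their part in the list means, are therefore descriptions. The part of these changes in the results below was not tested, and with whole cultures on an array fewer cells of a type and less RNA per cell cannot be told apart.

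Glycolysis splits glucose into pyruvate in the cytosol. Pyruvate is either reduced to lactate or carried into mitochondria, where the pyruvate dehydrogenase complex turns it into acetyl-CoA for the TCA cycle; pyruvate dehydrogenase kinases phosphorylate the complex and hold it back. The pentose phosphate pathway leaves glycolysis early to supply NADPH and ribose. Mouse embryonic stem cells are known for a high rate of glycolysis beside an active TCA cycle.

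The called genes of glycolysis mostly fell and those of the TCA cycle rose. At 6 h, 17 of the 43 genes passed the threshold (limma's moderated test on all 12 arrays, Benjamini-Hochberg adjusted p under 0.05 over all 11445 genes, 2-sided): 8 rose, beside 17.8% of all genes, and 9 fell, beside 13.6% of all genes. As 18.6% and 20.9% of the genes tested, neither share stands far from that background. By pathway, 6 of 17 glycolysis genes fell and 0 rose, and 5 of 17 TCA cycle genes rose and 0 fell. Among these 5, Sucla2 was detected on 0 of 3 arrays at 0 h and passed the detection filter through exposed arrays alone. Its call is therefore a description. All 5 tested genes of the pyruvate dehydrogenase list changed (2 up, 3 down), and 1 of 4 pentose phosphate genes rose. At 18 h, 15 of 43 had changed: 8 rose, beside 21% of all genes, and 7 fell, beside 15.7%. Of these, 5 of 17 glycolysis genes fell and 1 rose, while 6 of 17 TCA cycle genes rose and 0 fell. At 2 h, 1 of 43 rose (2.39% of all genes) and 1 fell (1.07% of all genes). The median log2 change of the glycolysis genes was -0.303 at 2 h, -0.368 at 6 h and -0.154 at 18 h, and that of the TCA cycle genes was 0.0476, 0.253 and 0.33, where the median of all genes was -0.00471, 0.0234 and 0.045. Whether the pathways differed from each other or from other genes was not tested. A moderated F test over the 4 groups called 20 of 43, beside 44.1% of all genes.

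The split between higher and lower depended on how arrays were scaled. Scaled on each array's 75th percentile in place of quantile normalization, the median of all genes moved by -0.11 at 6 h and by -0.158 at 18 h. The calls then stood at 3 higher and 13 lower at 6 h, and 4 higher and 16 lower at 18 h. Over all genes the share of higher calls was 48.5% in place of 56.6% at 6 h, and 43.1% in place of 57.1% at 18 h. Set against the median of all genes, the glycolysis median was -0.569 at 6 h and -0.599 at 18 h under that scaling, and the TCA cycle median was 0.248 and 0.235. Under it the calls of Eno3, Pdhb, Cs, Idh1, Sucla2 and Mdh2 at 6 h, of Aldoc, Idh3a, Dld and Suclg1 at 18 h, of Pdhb at 6 h against 2 h and of Slc2a1, Slc2a3 and Rpia at 18 h against 6 h were lost. Called changes that it moved by over 1.5 times were those of Tpi1 (to -0.83 at 6 h and -1.26 at 18 h), Pkm (to -0.90 at 18 h), Pdha1 (to -0.80 at 18 h), Mdh2 (to 0.33 at 6 h and 0.54 at 18 h) and Suclg1 (to 0.15 at 18 h). Among changes not called on the quantile-normalized scale, it moved those at 18 h to -0.72 for Slc2a1, -0.83 for Gapdh, -0.75 for Ldha, -0.54 for Aldoa and 0.09 for Cs, and the Gapdh change at 6 h to -0.66. Dim genes depended on the background correction: without it the log2 change at 6 h was 0.74 for Dlat, 0.29 for Rpia, 0.27 for Sucla2 and -0.33 for Eno3, and at 18 h it was -0.72 for Eno3 and 0.30 for Dlat. At 2 h it was 0.41 for Rpia, and at 18 h against 6 h it was -0.24 for Rpia, -0.39 for Eno3 and -0.44 for Dlat. No gene called at 2 h, 6 h or 18 h against 0 h turned its sign under any alternative run.

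**Figure D1:**
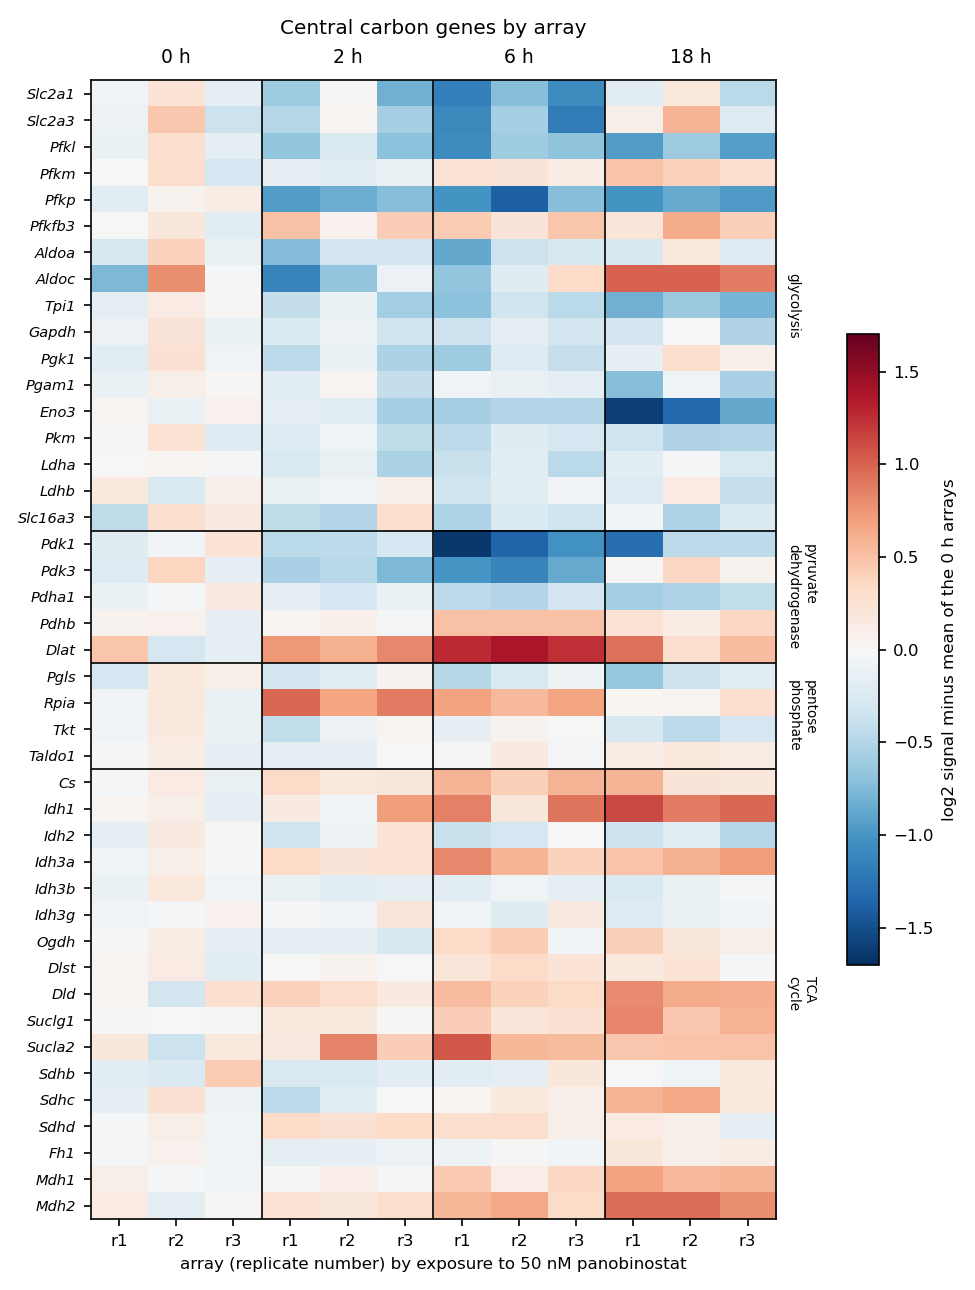
Each row is a tested gene and each column an array, ordered by hours of exposure to 50 nM panobinostat. Colour gives the log2 signal minus the mean of the 0 h arrays, red above and blue below. Slc2a1, Slc2a3, Pfkl, Pfkp and Pdk1 run blue at 6 h, and Dlat, Idh1 and Mdh2 run red. The quantile-normalized scale is shown, on which 15 of 17 glycolysis genes lay below 0 at 6 h, beside 48.2% of all genes.

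The 250 bases upstream of the annotated start are shown for Slc2a1 and Pdk3, which fell at 6 h, and for Dlat and Mdh2, which rose. These 4 genes are examples picked by hand, and each has 1 start in the RefSeq promoter table (build GRCm38.p6). Each stretch is read 5′ to 3′ on the gene's strand. Capitals mark the cores ACGTG and GCGTG on either strand (CACGT and CACGC when read from the other), to which hypoxia-inducible factors, known regulators of glycolytic genes and pyruvate dehydrogenase kinases, can bind. The Slc2a1 stretch is chr4:119108495-119108744, plus strand, that of Pdk3 is chrX:93832151-93832400, minus strand, that of Dlat is chr9:50659781-50660030, minus strand and that of Mdh2 is chr5:135778399-135778648, plus strand.
Slc2a1: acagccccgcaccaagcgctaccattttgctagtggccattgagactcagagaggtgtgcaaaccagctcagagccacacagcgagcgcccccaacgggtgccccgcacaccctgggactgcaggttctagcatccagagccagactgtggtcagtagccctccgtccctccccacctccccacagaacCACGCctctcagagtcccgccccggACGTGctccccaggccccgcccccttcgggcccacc
Pdk3: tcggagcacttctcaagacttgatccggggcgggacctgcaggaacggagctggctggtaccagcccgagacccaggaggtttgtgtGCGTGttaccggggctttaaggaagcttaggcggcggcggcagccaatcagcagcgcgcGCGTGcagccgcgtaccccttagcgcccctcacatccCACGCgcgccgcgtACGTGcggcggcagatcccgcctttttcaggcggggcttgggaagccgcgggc
Dlat: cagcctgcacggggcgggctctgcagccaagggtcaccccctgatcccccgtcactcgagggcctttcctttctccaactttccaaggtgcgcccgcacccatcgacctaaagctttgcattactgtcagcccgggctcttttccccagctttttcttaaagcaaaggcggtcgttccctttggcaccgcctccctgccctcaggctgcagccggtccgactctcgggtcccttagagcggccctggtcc
Mdh2: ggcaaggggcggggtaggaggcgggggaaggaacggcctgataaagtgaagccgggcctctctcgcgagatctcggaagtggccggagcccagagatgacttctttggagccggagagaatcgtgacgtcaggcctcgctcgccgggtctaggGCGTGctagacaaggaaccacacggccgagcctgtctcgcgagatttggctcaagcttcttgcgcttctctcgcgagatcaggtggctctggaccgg
Slc2a1 holds 2 cores, Pdk3 holds 4, Dlat holds 0 and Mdh2 holds 1. Over all 49 of the 52 genes in the table, ACGTG occurred in 17 upstream stretches (34.7%, against 18.5% of 27025 genes) and GCGTG in 33 (67.3%, against 30.9%). The E-box CACGTG, which contains ACGTG, occurred in 5 (10.2%, against 6.86%), and the GC box GGGCGG in 34 (69.4%, against 35.4%). The upstream stretches of these genes were richer in G and C, with a median of 60.8% against 52.4% of all genes, and the part of that in the shares was not tested. ACGTG was found in 2 of the 8 genes lower at 6 h that the table holds, 1 of the 7 higher at 6 h, and 9 of the 20 that passed at neither 6 h nor 18 h. Those 2 are Slc2a1 and Pdk3, both shown above, and the 1 higher is Pdhb, not shown. The 4 stretches shown therefore do not stand for their groups. For GCGTG the counts were 7 of 8 lower, 4 of 7 higher and 15 of 20 not past, and for the GC box 5 of 8, 7 of 7 and 13 of 20. A match describes these letters and is not evidence of a bound site.

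Both glucose transporters fell at 6 h, and at 18 h neither differed from 0 h past the threshold on the quantile-normalized scale. Under 75th percentile scaling the 18 h change was -0.72 for Slc2a1 (adjusted p = 0.0188) and -0.49 for Slc2a3 (adjusted p = 0.153), which turned its sign. Slc2a1, the widespread glucose transporter, had log2 signals of 13.45, 13.76 and 13.37 at 0 h and 12.93, 13.56 and 12.72 at 2 h. The later arrays were at 12.37, 12.81 and 12.46 at 6 h and 13.35, 13.71 and 13.07 at 18 h. Its 3 arrays at 6 h lay below all 0 h and 18 h arrays, and the 18 h and 0 h arrays overlapped. The log2 change was -0.98 (SE 0.23, adjusted p = 0.00588) at 6 h against 0 h, or 0.505 times the 0 h signal, and -0.15 (SE 0.23, adjusted p = 0.643) at 18 h. Slc2a3, a transporter with high affinity for glucose, had 13.75, 14.31 and 13.48 at 0 h and 13.36, 13.89 and 13.28 at 2 h. It then had 12.75, 13.28 and 12.66 at 6 h and 13.95, 14.43 and 13.63 at 18 h. The 6 h arrays again lay below all 0 h arrays, with a log2 change of -0.95 (SE 0.27, adjusted p = 0.0156) at 6 h and 0.16 (SE 0.27, adjusted p = 0.686) at 18 h. Between 6 h and 18 h both transporters rose: the log2 change at 18 h against 6 h was 0.83 (SE 0.23, adjusted p = 0.0359) for Slc2a1 and 1.10 (SE 0.27, adjusted p = 0.0198) for Slc2a3. With arrays left out singly, the 6 h call of Slc2a3 was lost without replicate 2 at 0 h or replicate 1 or 3 at 6 h (adjusted p = 0.0581, 0.0601 and 0.0588). The 18 h against 6 h call was lost for Slc2a1 without replicate 1 or 3 at 6 h or replicate 1 or 2 at 18 h (adjusted p = 0.0643 to 0.133) and with no filter on detection (adjusted p = 0.0546). For Slc2a3 it was lost without replicate 1 or 3 at 6 h or replicate 2 at 18 h (adjusted p = 0.0725, 0.0797 and 0.0785).

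**Figure D2:**
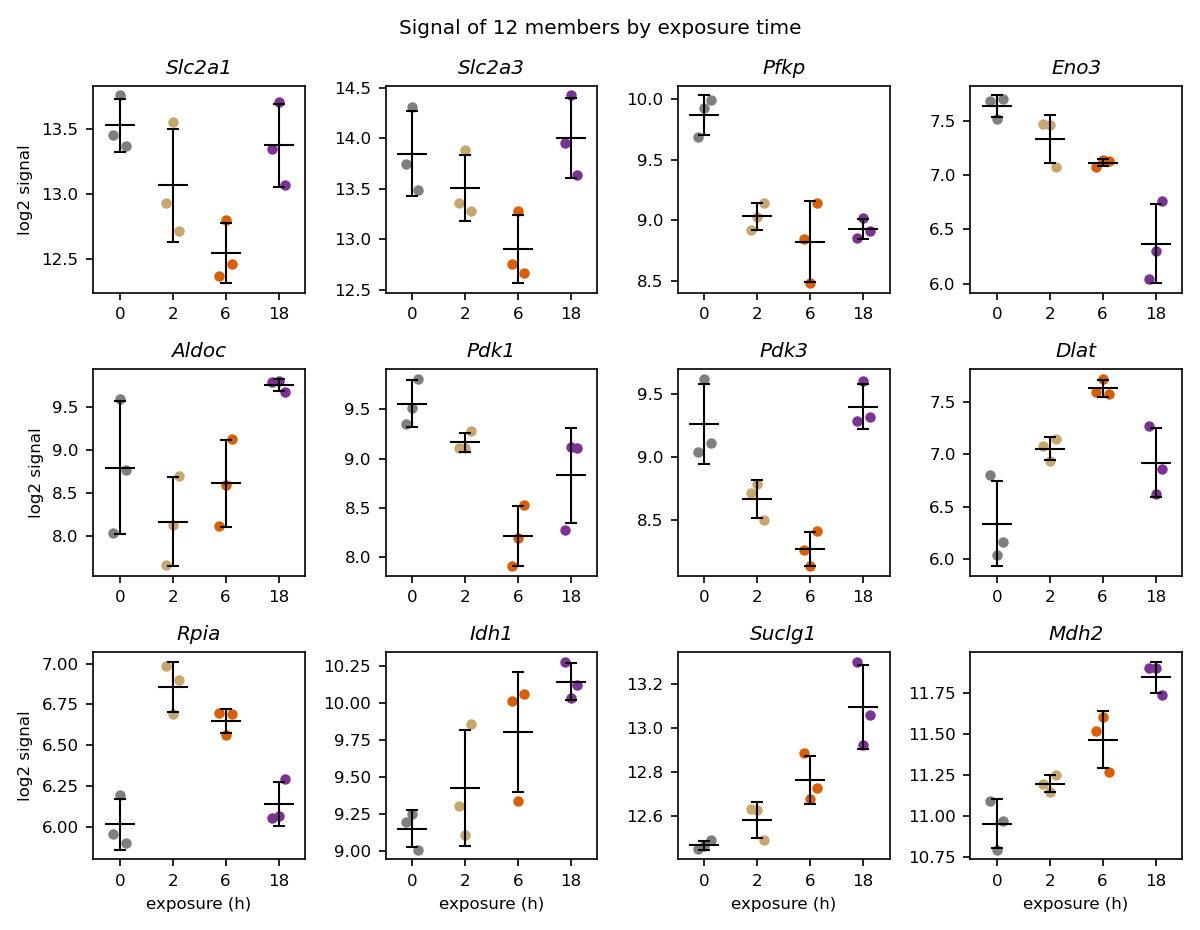
Log2 signal on each array (points) with the group mean and SD (black, n = 3) against hours of exposure, for 12 genes, each on its own axis. Slc2a1, Slc2a3 and Pdk3 were lowest at 6 h and overlapped the 0 h arrays at 18 h on the quantile-normalized scale, while Idh1, Suclg1 and Mdh2 had their highest mean at 18 h.

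Phosphofructokinase, the main control point of glycolysis, is built of the subunits Pfkl, Pfkm and Pfkp, named for liver, muscle and platelet. Pfkp, which had 9.69, 9.93 and 10.00 at 0 h, 8.93, 9.03 and 9.15 at 2 h, 8.85, 8.48 and 9.14 at 6 h and 8.86, 9.02 and 8.91 at 18 h, was below every 0 h array on all 9 arrays of exposed cells. It was the gene of the 43 that fell at 2 h, with a log2 change of -0.84 (SE 0.17, adjusted p = 0.0196). This Pfkp call was lost without replicate 3 at 0 h or any single 2 h array (adjusted p = 0.0504 to 0.0868). Its log2 change was -1.05 (SE 0.17, adjusted p = 0.00069) at 6 h and -0.94 (SE 0.17, adjusted p = 0.00107) at 18 h. Pfkl had 12.20, 12.59 and 12.16 at 0 h, 11.65, 12.06 and 11.62 at 2 h, 11.24, 11.71 and 11.63 at 6 h and 11.37, 11.70 and 11.38 at 18 h, also with all exposed arrays below all 0 h arrays. The log2 change was -0.79 (SE 0.19, adjusted p = 0.00708) at 6 h and -0.83 (SE 0.19, adjusted p = 0.00412) at 18 h. At 2 h it was -0.54 (SE 0.19, adjusted p = 0.153), and with the replicate number as a block the adjusted p was 0.0378. A second, dim Pfkl probe changed by 0.21 at 2 h, -0.22 at 6 h and -0.15 at 18 h. With the mean of both probes neither the 6 h nor the 18 h call was made (adjusted p = 0.0919 and 0.0877). Pfkm averaged 9.78 ± 0.10 at 18 h and 9.39 ± 0.30 at 0 h (SD, n = 3 each) and did not pass, with a log2 change of 0.39 (SE 0.16, adjusted p = 0.0706). Without 0 h replicate 2 it passed (adjusted p = 0.0152). Pfkfb3, which makes the allosteric activator of phosphofructokinase, was not detected on any 0 h array. It differed by at least 1.03-fold at 6 h and at least 1.06-fold at 18 h, neither past the threshold (adjusted p = 0.121 and 0.0768). At 18 h the adjusted p was 0.0487 without 0 h replicate 2. The adjusted p-values of Pfkfb3 are given as descriptions, since the filter kept the gene for its exposed arrays. A fold bound of this kind sets the brighter group's mean against the lowest detected signal of each array, or the probe's own where higher.

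In lower glycolysis Tpi1, Eno3 and Pkm fell. Tpi1, which interconverts the triose phosphates, had 13.30, 13.59 and 13.47 at 0 h and 13.04, 13.34 and 12.87 at 2 h. At 6 h it read 12.76, 13.11 and 12.99, and at 18 h 12.64, 12.82 and 12.66. The 18 h arrays lay below all others but 6 h replicate 1, and the log2 change was -0.50 (SE 0.16, adjusted p = 0.0325) at 6 h and -0.75 (SE 0.16, adjusted p = 0.0031) at 18 h. The 6 h call was lost without replicate 2 or 3 at 0 h or replicate 1 or 3 at 6 h (adjusted p = 0.0628 to 0.135) and with only the compared groups in the fit (adjusted p = 0.0508). Eno3, the muscle-type enolase, was at 7.68, 7.52 and 7.70 at 0 h, 7.47, 7.46 and 7.07 at 2 h, 7.07, 7.14 and 7.13 at 6 h and 6.04, 6.30 and 6.76 at 18 h, with every 18 h array below every earlier one. At 18 h its signal was 0.416 times that at 0 h, a log2 change of -1.27 (SE 0.19, adjusted p = 0.000217), and at 6 h the change was -0.52 (SE 0.19, adjusted p = 0.0472). It fell again between 6 h and 18 h, with a log2 change of -0.75 (SE 0.19, adjusted p = 0.0228). The Eno3 call at 6 h was lost without any single 0 h array, replicate 1 or 2 at 2 h, any single 6 h array or replicate 2 at 18 h (adjusted p = 0.0508 to 0.121) and with no filter on detection (adjusted p = 0.0556). The call at 18 h against 6 h was lost without any single 6 h array or replicate 1 or 2 at 18 h (adjusted p = 0.0621 to 0.0734). Pkm, pyruvate kinase of the M type, had 12.35, 12.64 and 12.17 at 0 h and 12.17, 12.31 and 11.95 at 2 h. The 6 h arrays gave 11.94, 12.18 and 12.10 and the 18 h arrays 12.04, 11.88 and 11.89. The 18 h arrays were below all 0 h arrays, and the log2 change was -0.45 (SE 0.16, adjusted p = 0.0444). The Pkm call was lost without replicate 1 or 2 at 0 h, replicate 1 or 2 at 2 h, any single 6 h array or any single 18 h array (adjusted p = 0.0501 to 0.144) and with array weights (adjusted p = 0.0524) and only the compared groups in the fit (adjusted p = 0.107).

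Aldoc, the brain-type aldolase, was the glycolysis gene that rose, and it did so late. Its log2 signals were 8.04, 9.59 and 8.76 at 0 h and 7.67, 8.13 and 8.70 at 2 h. Values were 8.12, 8.59 and 9.12 at 6 h and 9.79, 9.80 and 9.67 at 18 h. The 18 h arrays were tight and above all others, whereas the 0 h arrays spread widely. The log2 change was 0.96 (SE 0.36, adjusted p = 0.0495) at 18 h, 1.95 times the 0 h signal. The Aldoc call was lost without replicate 1 or 3 at 0 h, replicate 2 at 2 h, replicate 2 at 6 h or any single 18 h array (adjusted p = 0.06 to 0.216) and with no filter on detection (adjusted p = 0.0977) and only the compared groups in the fit (adjusted p = 0.0577). Leaving out the lowest 0 h array, replicate 1, gave a change of 0.58. At 18 h against 6 h it was 1.14 (SE 0.36, adjusted p = 0.0556), with an adjusted p of 0.0162 with the replicate number as a block.

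Several core steps passed in no comparison with 0 h on the quantile-normalized scale. Aldoa, the main aldolase of most cells, averaged 12.10 ± 0.32 at 6 h and 12.60 ± 0.35 at 0 h (SD, n = 3 each), and Pgk1, phosphoglycerate kinase, averaged 12.84 ± 0.20 at 6 h and 13.25 ± 0.23 at 0 h. For both genes the 6 h arrays lay narrowly below all 0 h arrays, with log2 changes of -0.51 (SE 0.22, adjusted p = 0.0996) for Aldoa and -0.40 (SE 0.18, adjusted p = 0.115) for Pgk1. Blocked on the replicate number, both passed (adjusted p = 0.0207 and 0.0267). Ldha, which reduces pyruvate to lactate, stood at 13.39, 13.58 and 13.31 at 6 h, against 13.78, 13.80 and 13.73 at 0 h, without overlap, and its log2 change of -0.34 (SE 0.15, adjusted p = 0.102) did not pass. Gapdh, glyceraldehyde phosphate dehydrogenase, was at 13.33, 13.63 and 13.12 at 18 h, against 13.53, 13.85 and 13.52 at 0 h, with overlap and a log2 change of -0.27 (SE 0.17, adjusted p = 0.22). Under 75th percentile scaling Aldoa, Gapdh, Pgk1, Pkm and Ldha were called lower at 6 h, and Slc2a1, Gapdh, Pgam1 and Ldha were called lower at 18 h. Pgam1, phosphoglycerate mutase, had a log2 change of -0.45 (SE 0.18, adjusted p = 0.0707) at 18 h and passed without 18 h replicate 2 (adjusted p = 0.0139). Gapdh has many near-identical pseudogene copies, and binding of its probe to their transcripts was not tested. Ldhb, the other lactate dehydrogenase subunit, and Slc16a3, a lactate exporter, were close to background and did not pass, with log2 changes at 18 h of -0.15 and -0.27.

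All 5 tested genes of the pyruvate dehydrogenase list changed at 6 h, in both directions. Dld, which belongs to the complex but is listed with the TCA cycle, did not pass at 6 h. Of 6 further genes of pyruvate entry tested, 2 rose (17.8% of all genes) and 0 fell (13.6%) at 6 h. Of the kinases that phosphorylate and restrain the complex, Pdk1 had 9.35, 9.52 and 9.81 at 0 h and 9.10, 9.11 and 9.28 at 2 h. The later arrays were at 7.91, 8.20 and 8.53 at 6 h and 8.27, 9.11 and 9.11 at 18 h. The 6 h arrays lay below all 0 h and 2 h arrays, and 18 h replicate 1 lay well under the other two of its group. The log2 change was -1.34 (SE 0.23, adjusted p = 0.000853) at 6 h, 0.394 times the 0 h signal and the largest fall among the 43 genes at that time. It was -0.73 (SE 0.23, adjusted p = 0.0253) at 18 h. The 18 h call was lost without replicate 3 at 0 h or replicate 1 at 18 h (adjusted p = 0.0979 and 0.115) and with array weights (adjusted p = 0.0758) and only the compared groups in the fit (adjusted p = 0.0629). Leaving out 18 h replicate 1 gave a change of -0.45. Pdk3 had 9.04, 9.62 and 9.11 at 0 h and 8.71, 8.79 and 8.50 at 2 h. It then had 8.25, 8.13 and 8.41 at 6 h and 9.28, 9.61 and 9.32 at 18 h. It was below all 0 h arrays at 2 h and 6 h and overlapped them at 18 h, with log2 changes of -0.99 (SE 0.18, adjusted p = 0.00117) at 6 h and 0.14 (SE 0.18, adjusted p = 0.574) at 18 h. At 18 h against 6 h Pdk3 rose by 1.14 (SE 0.18, adjusted p = 0.00247) on the log2 scale, or 2.2 times, and this call was kept under every alternative run.

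Dlat, the acetyltransferase core of the complex, moved the other way. It had 6.80, 6.04 and 6.16 at 0 h, 7.08, 6.93 and 7.15 at 2 h, 7.60, 7.73 and 7.58 at 6 h and 7.28, 6.62 and 6.86 at 18 h, so that the 2 h and 6 h arrays were above all 0 h arrays and the 18 h arrays overlapped them. The log2 change was 1.30 (SE 0.21, adjusted p = 0.000573) at 6 h, 2.46 times the 0 h signal and the largest rise among the 43 genes at that time. At 18 h it was 0.59 (SE 0.21, adjusted p = 0.0433). At 2 h it was 0.72 (SE 0.21, adjusted p = 0.0827). The call was made with the replicate number as a block (adjusted p = 0.0362) and without 0 h replicate 1 (adjusted p = 0.0249), the array with the highest 0 h value. The 18 h call was lost without replicate 2 or 3 at 0 h, any single 2 h array, any single 6 h array or replicate 1 or 3 at 18 h (adjusted p = 0.0508 to 0.178) and with no background correction, the authors' normalized values, no filter on detection, array weights and only the compared groups in the fit (adjusted p = 0.0562 to 0.247). Between 6 h and 18 h Dlat fell, with a log2 change of -0.71 (SE 0.21, adjusted p = 0.0452). That call was lost without any single 2 h array, any single 6 h array or replicate 2 or 3 at 18 h (adjusted p = 0.0531 to 0.159) and with no filter on detection (adjusted p = 0.0617). The subunits of the decarboxylase component parted. Pdhb, the beta subunit, rose to 10.05 ± 0.01 at 6 h, against 9.56 ± 0.13 at 0 h (SD, n = 3 each). Pdha1, the X-linked alpha subunit, fell to 10.60 ± 0.09 at 6 h and 10.52 ± 0.08 at 18 h, against 11.03 ± 0.13 at 0 h. Their log2 changes at 6 h were 0.50 (SE 0.13, adjusted p = 0.0131) for Pdhb and -0.42 (SE 0.14, adjusted p = 0.0322) for Pdha1. At 18 h they were 0.25 (SE 0.13, adjusted p = 0.171) and -0.50 (SE 0.14, adjusted p = 0.0117). The Pdhb call was lost without replicate 3 at 0 h (adjusted p = 0.057) and with the mean of its 3 probes (adjusted p = 0.106). Of these, a dim probe changed by -0.08 at 6 h and by -0.93 (SE 0.19) at 18 h. The remaining Pdhb probe changed by 0.29 (SE 0.18) at 18 h. The Pdha1 call was lost at 6 h without replicate 3 at 0 h or replicate 1 or 2 at 6 h (adjusted p = 0.119, 0.0903 and 0.102) and with only the compared groups in the fit (adjusted p = 0.069). At 18 h it was lost without replicate 3 at 0 h (adjusted p = 0.0526) and with only the compared groups in the fit (adjusted p = 0.0571).

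In the pentose phosphate pathway Rpia, ribose phosphate isomerase, was the gene that rose. It had 5.96, 6.19 and 5.90 at 0 h and 6.99, 6.69 and 6.90 at 2 h. At 6 h it read 6.70, 6.56 and 6.69, and at 18 h 6.05, 6.07 and 6.29. All 2 h and 6 h arrays were above all 0 h and 18 h arrays, and the 18 h and 0 h arrays overlapped. Its log2 change was 0.84 (SE 0.15, adjusted p = 0.00952) at 2 h, 1.79 times the 0 h signal. It was 0.63 (SE 0.15, adjusted p = 0.00586) at 6 h and 0.12 (SE 0.15, adjusted p = 0.559) at 18 h, and the calls at 2 h and 6 h were kept under every alternative run. It fell again between 6 h and 18 h, with a log2 change of -0.51 (SE 0.15, adjusted p = 0.0427). It was no longer called without replicate 1 at 0 h, any single 2 h array, any single 6 h array or replicate 1 or 2 at 18 h (adjusted p = 0.0507 to 0.124) and with no background correction, cyclic loess normalization, the authors' normalized values and only the compared groups in the fit (adjusted p = 0.0548 to 0.0692). Tkt and Taldo1, the transketolase and transaldolase that return sugars to glycolysis, and Pgls, the lactonase of the oxidising branch, did not pass, with log2 changes at 18 h of -0.33, 0.15 and -0.40. Under 75th percentile scaling Tkt (adjusted p = 0.00866) and Pgls (adjusted p = 0.0214) were called lower at 18 h.

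**Figure D3:**
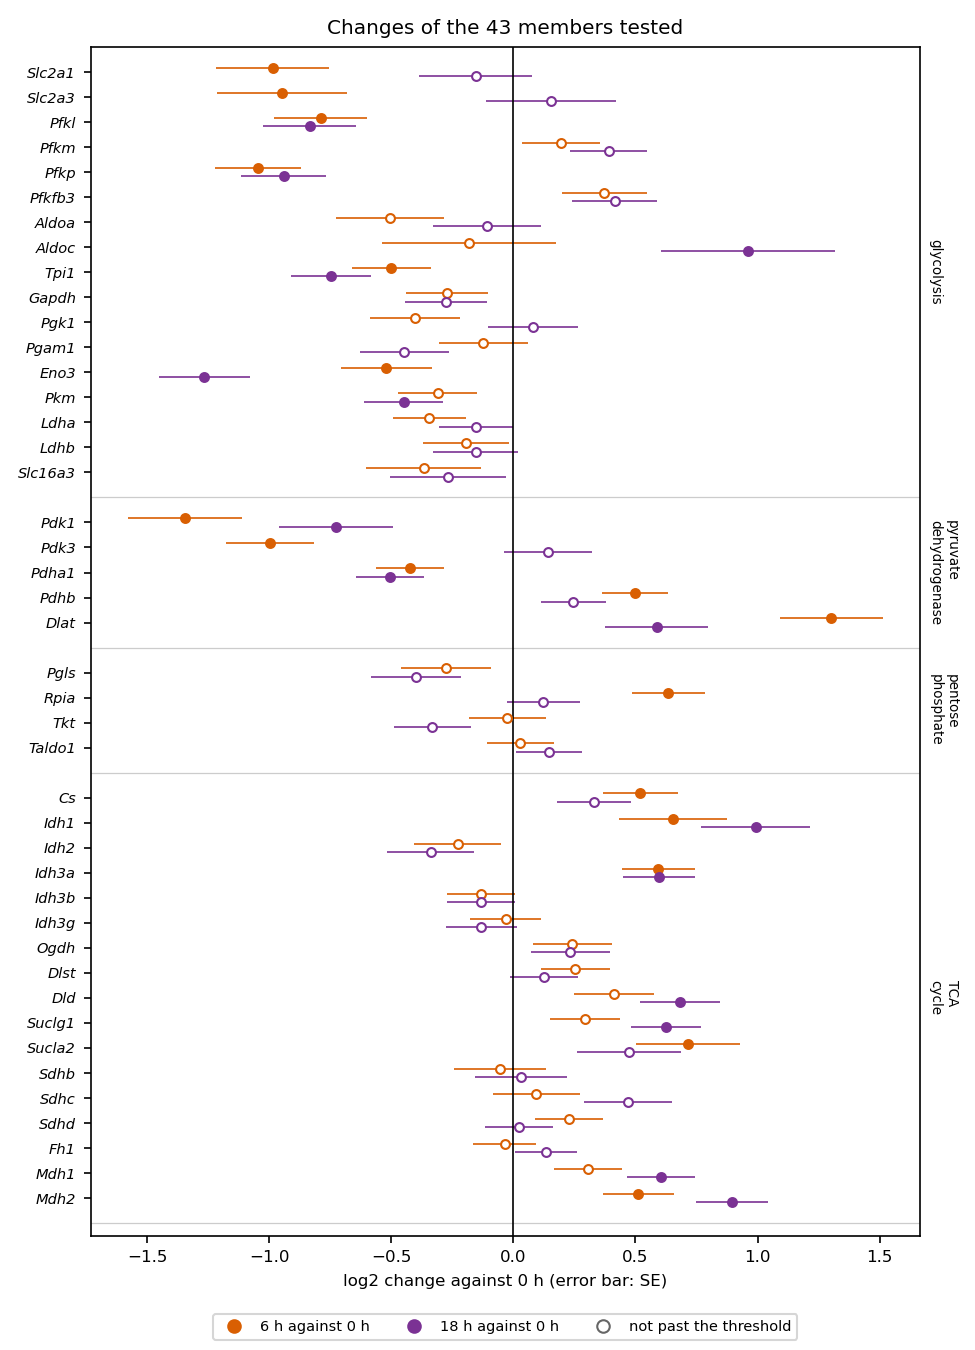
Log2 change against 0 h with its SE for each of the 43 tested genes at 6 h (orange) and 18 h (purple), by pathway; open points did not pass the threshold. On the quantile-normalized scale filled points of glycolysis lie left of 0 except Aldoc at 18 h, and filled points of the TCA cycle lie right of 0.

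The TCA cycle genes that passed all rose on the quantile-normalized scale, the cytosolic Idh1 and Mdh1 among them. At 18 h 14 of 17 lay above 0, where 46.4% of all genes lay below 0. Under 75th percentile scaling 10 of 17 lay above 0 at 18 h, and Idh2, Idh3b and Idh3g were called lower. Mdh2, the mitochondrial malate dehydrogenase, had 11.09, 10.79 and 10.97 at 0 h and 11.19, 11.15 and 11.25 at 2 h. The 6 h arrays gave 11.52, 11.60 and 11.27 and the 18 h arrays 11.90, 11.90 and 11.74. All exposed arrays lay above all 0 h arrays and the 18 h arrays above all others, with log2 changes of 0.51 (SE 0.15, adjusted p = 0.0171) at 6 h and 0.89 (SE 0.15, adjusted p = 0.000464) at 18 h. Its 6 h call was lost without replicate 2 at 0 h or replicate 1 or 2 at 6 h (adjusted p = 0.0521, 0.0627 and 0.0718). Mdh1, the cytosolic enzyme, was at 7.89, 7.76 and 7.74 at 0 h, 7.81, 7.90 and 7.76 at 2 h, 8.24, 7.91 and 8.15 at 6 h and 8.48, 8.34 and 8.37 at 18 h, again with the 18 h arrays above all others. Its log2 change was 0.61 (SE 0.14, adjusted p = 0.00442) at 18 h, a call kept under every alternative run, and 0.31 (SE 0.14, adjusted p = 0.116) at 6 h. Idh1, the cytosolic isocitrate dehydrogenase that makes NADPH, had 9.20, 9.25 and 9.01 at 0 h and 9.31, 9.11 and 9.86 at 2 h. Values were 10.01, 9.34 and 10.07 at 6 h and 10.28, 10.03 and 10.12 at 18 h. The 6 h arrays spread widely, with replicate 2 near the 0 h values, whereas the 18 h arrays were all above 0 h. The log2 change was 0.65 (SE 0.22, adjusted p = 0.039) at 6 h and 0.99 (SE 0.22, adjusted p = 0.00364) at 18 h, 1.99 times the 0 h signal. The Idh1 call at 6 h was lost without any single 0 h array or replicate 1 or 3 at 6 h (adjusted p = 0.0505 to 0.14) and with no filter on detection (adjusted p = 0.06). Cs, citrate synthase, which opens the cycle, rose to 10.73 ± 0.10 at 6 h, against 10.21 ± 0.13 at 0 h (SD, n = 3 each), a log2 change of 0.52 (SE 0.15, adjusted p = 0.0196). It was lost without replicate 1 or 3 at 0 h or replicate 1 or 3 at 6 h (adjusted p = 0.0534 to 0.0716). At 18 h the Cs change of 0.33 (SE 0.15, adjusted p = 0.107) did not pass.

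Within the complexes of the cycle some subunits passed and others did not. Of the 3 subunits of the NAD-dependent isocitrate dehydrogenase, the catalytic Idh3a rose to 9.80 ± 0.21 at 6 h and 9.80 ± 0.11 at 18 h, against 9.20 ± 0.09 at 0 h (SD, n = 3 each). Its log2 changes were 0.59 (SE 0.15, adjusted p = 0.0083) and 0.60 (SE 0.15, adjusted p = 0.00664). The partners Idh3b and Idh3g changed by -0.13 and -0.13 at 18 h and did not pass. A second, dim Idh3b probe changed by -0.66 (SE 0.24) at 18 h, and a second Idh3g probe by -0.62 (SE 0.21). The second Idh3a probe changed by 0.33 (SE 0.18) at 18 h. Dld, the dehydrogenase shared by the pyruvate and oxoglutarate complexes, had 9.33, 8.99 and 9.57 at 0 h and 9.68, 9.60 and 9.45 at 2 h. The later arrays were at 9.82, 9.68 and 9.62 at 6 h and 10.10, 9.93 and 9.91 at 18 h. The 18 h arrays were above all others, and the log2 change was 0.68 (SE 0.16, adjusted p = 0.00551). At 6 h it was 0.41 (SE 0.16, adjusted p = 0.0728), which passed without 0 h replicate 3 (adjusted p = 0.0332). Ogdh and Dlst, the other components of the oxoglutarate complex, changed by 0.23 and 0.13 at 18 h and did not pass. Suclg1, the alpha subunit of succinyl-CoA ligase, had 12.45, 12.46 and 12.49 at 0 h and 12.63, 12.63 and 12.49 at 2 h. It then had 12.89, 12.68 and 12.73 at 6 h and 13.30, 12.92 and 13.06 at 18 h. The 18 h arrays were above all others, with a log2 change of 0.62 (SE 0.14, adjusted p = 0.00412) that did not pass under 75th percentile scaling (adjusted p = 0.496). Sucla2, its ATP-forming beta subunit, was not detected on any 0 h array and had 5.75, 5.26 and 5.23 at 6 h, against 4.88, 4.33 and 4.87 at 0 h, without overlap. The difference was at least 1.28-fold. Its adjusted p of 0.021 is given as a description, since the filter kept the gene for its exposed arrays. It was not called without replicate 2 at 0 h or replicate 1 at 6 h (adjusted p = 0.0764 and 0.103) and with no background correction (adjusted p = 0.0551) and the authors' normalized values (adjusted p = 0.0543). Succinate dehydrogenase was measured by Sdhb, Sdhc and Sdhd, with log2 changes of 0.03, 0.47 and 0.02 at 18 h. Sdhc did not pass (adjusted p = 0.0544), and passed without 0 h replicate 2 (adjusted p = 0.0234) or 18 h replicate 3 (adjusted p = 0.0221). Fh1, fumarase, changed by 0.13 and did not pass.

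Isozymes that catalyse the same step were compared by the difference of their log2 signals within each array, since levels of different probes cannot be set against each other. Of 8 pairs, 6 had both members measured, and 3 of these 6 differed over the 4 times by an exact permutation test of all 369600 assignments of the arrays to groups, with p-values adjusted over the 6 pairs. Idh1 minus Idh2, the cytosolic against the mitochondrial NADP-dependent isocitrate dehydrogenase, was -2.08, -2.34 and -2.44 at 0 h and -1.80, -2.25 and -1.81 at 2 h. At 6 h it read -1.05, -1.80 and -1.37, and at 18 h -0.81, -1.23 and -0.84. Idh2 itself averaged 11.10 ± 0.15 at 18 h and 11.44 ± 0.16 at 0 h (SD, n = 3 each), a change that did not pass. The difference moved by 1.33 by 18 h toward Idh1, with no overlap between 18 h and 0 h arrays (exact permutation over the 4 times, adjusted p = 0.0164). Aldoa minus Aldoc was 4.29, 3.41 and 3.73 at 0 h, 4.20, 4.15 and 3.59 at 2 h, 3.61, 3.64 and 3.20 at 6 h and 2.54, 2.98 and 2.72 at 18 h. That is a move of -1.07 by 18 h toward Aldoc (exact permutation over the 4 times, adjusted p = 0.0253). Pdk1 minus Pdk3 was 0.31, -0.11 and 0.70 at 0 h and 0.39, 0.33 and 0.78 at 2 h. The 6 h arrays gave -0.34, 0.07 and 0.12 and the 18 h arrays -1.01, -0.49 and -0.21. It moved by -0.35 by 6 h, where the groups overlapped, and by -0.87 by 18 h toward Pdk3 (exact permutation over the 4 times, adjusted p = 0.0326). These p-values are for any difference among the 4 times, and the moves from 0 h to 18 h alone were not tested.

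For Slc2a1 and Slc2a3 (exact permutation, adjusted p = 0.2), Pfkl and Pfkp (adjusted p = 0.638) and Ldha and Ldhb (adjusted p = 0.588, exact as well, with Ldhb near background) the test did not pass, which does not show that their changes were alike. The difference moved by -0.04 at 6 h for the glucose transporters and by 0.26 for the phosphofructokinase subunits. The 3 pairs that passed did so under every processing alternative run and with the replicate number as a block. Leaving out 18 h replicate 1 lost all 3 calls (adjusted p = 0.0553 for Idh1 minus Idh2, 0.108 for Aldoa minus Aldoc and 0.131 for Pdk1 minus Pdk3). The same exact test lost Aldoa minus Aldoc without replicate 1 or 2 at 2 h or replicate 3 at 18 h (adjusted p = 0.0506, 0.0514 and 0.0518). It lost Pdk1 minus Pdk3 without any single 2 h array, 0 h replicate 1, 6 h replicate 2 or 3 or 18 h replicate 2 (adjusted p = 0.0535 to 0.084). Slc2a1 minus Slc2a3 passed without 0 h replicate 2 (exact permutation, adjusted p = 0.0418).

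**Figure D4:**
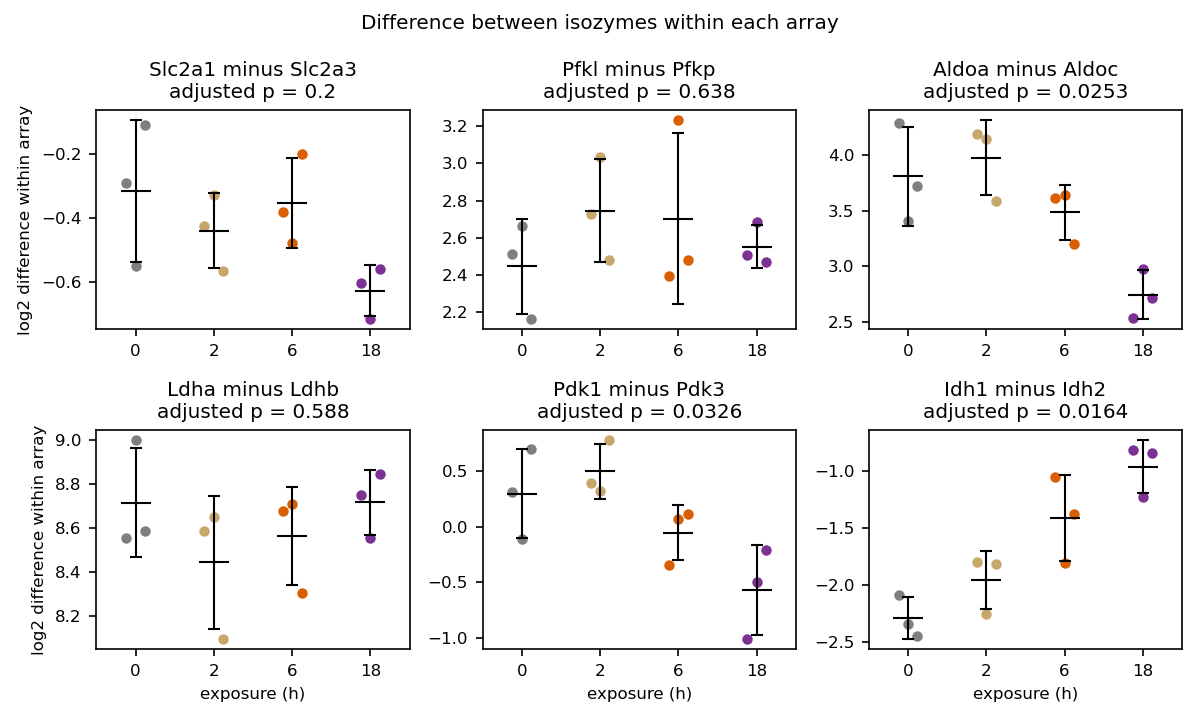
Difference in log2 signal between 2 isozymes within each array (points), with group mean and SD (black, n = 3), against hours of exposure; each panel has its own axis and prints the adjusted p of the exact permutation test. Idh1 minus Idh2 climbs at each time, and Aldoa minus Aldoc and Pdk1 minus Pdk3 have their lowest means at 18 h.

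Between consecutive times few of these genes passed. At 6 h against 2 h, 1 of 43 rose (beside 7.73% of all genes) and 1 fell (5.39% of all genes). Pdk1 fell, with a log2 change of -0.95 (SE 0.23, adjusted p = 0.0178). This was lost without replicate 1 or 3 at 2 h or replicate 1 or 2 at 6 h (adjusted p = 0.0512 to 0.0872) and with the mean of its probes (adjusted p = 0.323). Pdhb rose by 0.46 (SE 0.13, adjusted p = 0.0385) on the log2 scale. The rise was lost without any single 2 h array or any single 6 h array (adjusted p = 0.0807 to 0.111) and with the mean of its probes (adjusted p = 0.355). Blocking on the replicate number raised the count to 6 by adding Slc2a1 (adjusted p = 0.023) and Slc2a3 (adjusted p = 0.00744), both lower, and Dlat (adjusted p = 0.0411) and Ogdh (adjusted p = 0.0428), both higher. Over all genes the block raised the count from 1502 to 2248. Without 0 h replicate 1 Dlat passed (adjusted p = 0.0486), and without 6 h replicate 3 Ogdh (adjusted p = 0.0494). At 18 h against 6 h, 3 rose (6.21% of all genes), namely Slc2a1, Slc2a3 and Pdk3, and 3 fell (5.03% of all genes), namely Eno3, Dlat and Rpia. With the block Aldoc, Pgk1 (adjusted p = 0.0224) and Pdk1 (adjusted p = 0.0232) were called higher as well. Aldoc also passed without 0 h replicate 1 or 2 or 2 h replicate 3 (adjusted p = 0.0336, 0.0231 and 0.0475), and Pdk1 without 18 h replicate 1 (adjusted p = 0.0171). Of the 9 genes that had fallen at 6 h, Slc2a1, Slc2a3 and Pdk3 were thus higher at 18 h than at 6 h, while Pfkl, Pfkp, Tpi1, Eno3, Pdk1 and Pdha1 were still called lower at 18 h against 0 h. Of the 8 that had risen at 6 h, Dlat, Idh1, Idh3a and Mdh2 were also called at 18 h and Pdhb, Rpia, Cs and Sucla2 were not.

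Around these genes, 77 further genes of the same pathways were listed, of which 44 were tested. At 6 h 12 rose (17.8% of all genes) and 3 fell (13.6%), and at 18 h 13 rose (21%) and 6 fell (15.7%). At 2 h 3 rose (2.39%), Pfkfb4, Pfkfb2 and Pdp2, and 0 fell. Among the 12 is Slc25a10, which was not detected on any 0 h array and passed the detection filter through exposed arrays alone. By pathway, at 18 h 7 of 20 further genes of glycolysis rose and 2 fell (median log2 change 0.221), and 1 of 6 of pyruvate entry rose (0.16). Of the pentose phosphate pathway 2 of 5 rose and 2 fell (-0.219), and 3 of 13 of the TCA cycle rose and 2 fell (0.175), where the median of all genes was 0.045. Slc2a6, a glucose transporter of intracellular membranes, had log2 signals of 8.19, 7.00 and 7.27 at 18 h, against 5.04, 5.81 and 5.72 at 0 h, without overlap. It changed by 1.87 (SE 0.30, adjusted p = 0.000522) at 6 h and 1.96 (SE 0.30, adjusted p = 0.000279) at 18 h. Pfkfb4, which sets the level of the activator of phosphofructokinase, had 6.35, 6.69 and 5.70 at 0 h and 7.35, 7.21 and 7.85 at 2 h. Values were 8.28, 8.34 and 8.52 at 6 h and 8.35, 7.28 and 7.48 at 18 h. All of its exposed arrays lay above all 0 h arrays. It changed by 2.14 (SE 0.29, adjusted p = 0.00019) at 6 h, 4.39 times the 0 h signal, and by 1.45 (SE 0.29, adjusted p = 0.00184) at 18 h. The 2 h change was 1.22 (SE 0.29, adjusted p = 0.0365), lost without replicate 1 or 3 at 0 h, any single 2 h array or any single 6 h array (adjusted p = 0.0512 to 0.142) and with no background correction, the authors' normalized values, no filter on detection and only the compared groups in the fit (adjusted p = 0.0634 to 0.0706). Tktl1, a transketolase-like gene, was at 6.98, 6.42 and 6.96 at 18 h, against 5.43, 5.46 and 5.41 at 0 h, a log2 change of 1.35 (SE 0.19, adjusted p = 0.000168). Pdp1, the phosphatase that reverses the kinases' mark on pyruvate dehydrogenase, was at 7.17, 6.80 and 7.04 at 18 h, against 6.16, 5.46 and 6.11 at 0 h, and rose by 1.09 (SE 0.22, adjusted p = 0.00189). The groups did not overlap for either gene. Mdh1b, related to malate dehydrogenase by sequence, was at 7.53, 6.81 and 6.48 at 18 h, against 5.79, 6.53 and 4.82 at 0 h, with overlap. Its log2 change of 1.22 (SE 0.36, adjusted p = 0.0181) was lost without replicate 3 at 0 h or replicate 1 at 18 h (adjusted p = 0.0803 and 0.092) and with only the compared groups in the fit (adjusted p = 0.0519). Prps2, which turns ribose phosphate into the activated sugar of nucleotide synthesis, fell to 7.70, 8.24 and 8.15 at 18 h, against 9.26, 9.04 and 9.05 at 0 h, without overlap, a log2 change of -1.09 (SE 0.20, adjusted p = 0.00104). At 6 h the Prps2 change was -0.45 (SE 0.20, adjusted p = 0.109) and passed without 6 h replicate 1 (adjusted p = 0.0394). Picked out after their values were seen, Hkdc1, a hexokinase-like gene, changed by 0.71 (SE 0.22, adjusted p = 0.0207) at 18 h, and H6pd, the glucose dehydrogenase of the endoplasmic reticulum, by 0.46 (SE 0.16, adjusted p = 0.0389). The Hkdc1 call was lost without replicate 1 at 0 h or replicate 1 at 18 h (adjusted p = 0.0968 and 0.0855) and with no background correction, the authors' normalized values and only the compared groups in the fit (adjusted p = 0.0541 to 0.057). That of H6pd was lost without replicate 1 or 3 at 0 h, replicate 1 at 2 h, replicate 1 at 6 h or replicate 1 or 2 at 18 h (adjusted p = 0.0526 to 0.135) and with only the compared groups in the fit (adjusted p = 0.102). Under 75th percentile scaling neither passed (adjusted p = 0.0735 and 0.0576).

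**Figure D5:**
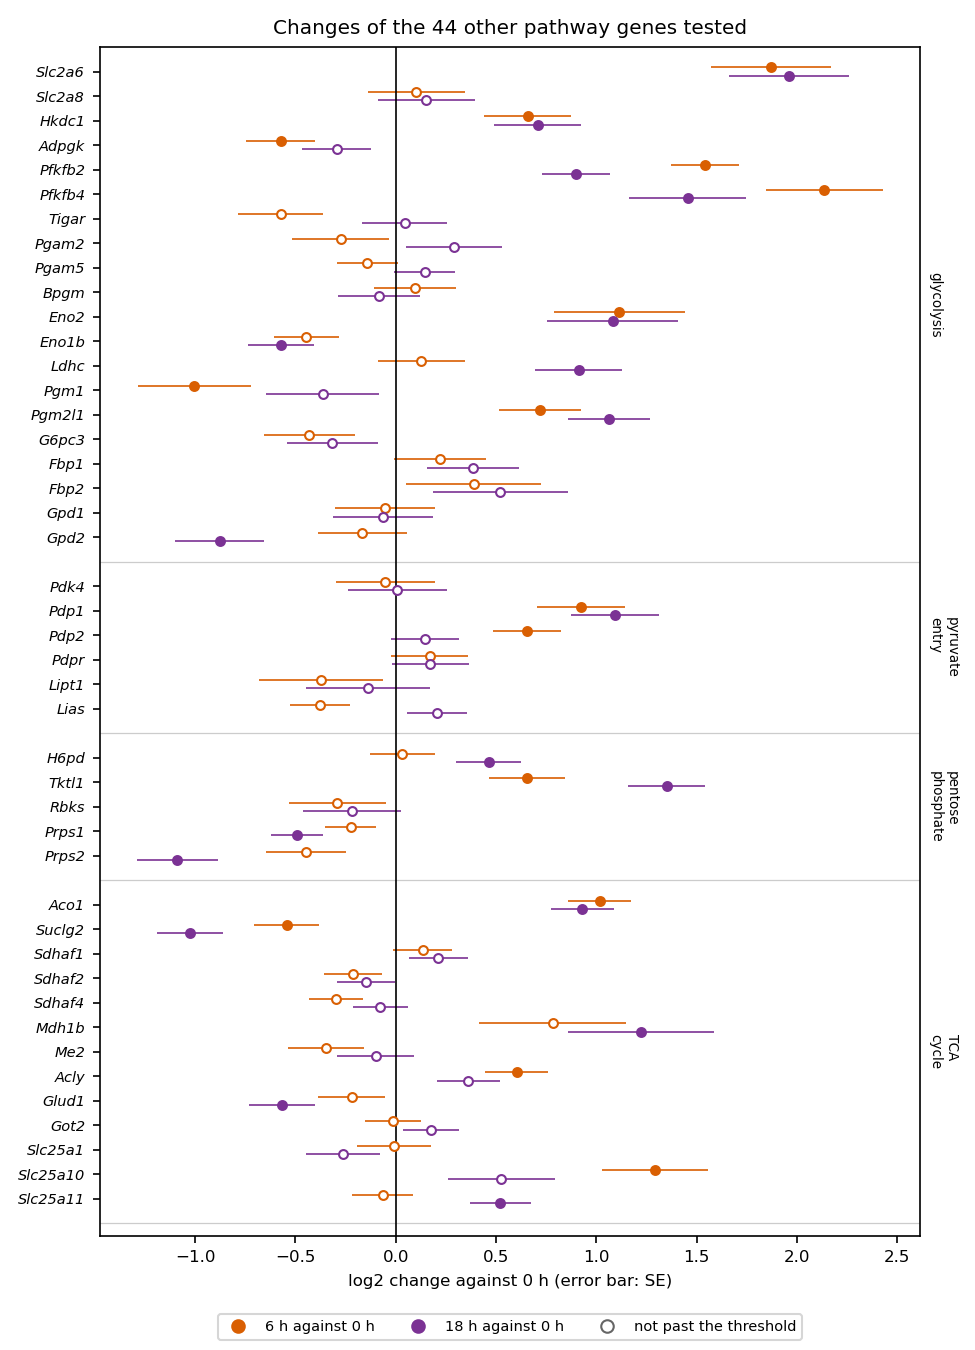
Log2 change against 0 h with its SE for the 44 further pathway genes tested, at 6 h (orange) and 18 h (purple); open points did not pass the threshold. Slc2a6 and Pfkfb4 lie farthest to the right, on the quantile-normalized scale.

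Several members had more than 1 kept probe. The 23 further probes of 16 genes read the same direction as a called change for 6 of 7 at 6 h and 10 of 10 at 18 h, the exception being a dim Pdhb probe. A change under 0.5 of the main probe's was read by 2 probes at 6 h and 1 at 18 h.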

How the data were processed

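Illumina bead arrays of 12 samples were analysed, 3 per group, with 0 value columns left unmapped. The authors deposited, per the file headers, a summarised intensity and a detection p-value for each probe, and a normalized table whose intensity medians of 117.3 to 117.4 were used as an alternative; the submitters' processing notes name GenomeStudio. From the summarised intensity (lowest signal 75.5), limma 3.58.1 in R 4.3.3 was run: normexp background correction with negative controls inferred from the detection p-values (offset 16), log2 and quantile normalization. The offset shrinks changes of dim probes. Probes were kept (20029 of 45281) where at least 3 arrays detected them at p-values below 0.05. Of those for which the platform annotation named 1 gene, the brightest per gene stood for the gene. All 12 arrays entered 1 model with a mean per group, followed by eBayes and Benjamini-Hochberg adjustment over 11445 genes, 2-sided at 0.05. Probe levels were not compared between genes. The procedure was tested on simulated data. No arrays held identical values.

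Arrays with the same replicate number deviated together from their group means at 2 h and 0 h (correlations 0.319 to 0.355), 6 h and 0 h (0.18 to 0.398), 6 h and 2 h (0.311 to 0.491) and 18 h and 6 h (0.146 to 0.342). The numbers were taken to pair the arrays where all correlations exceeded 0.1, a cut-off set by hand. At 18 h and 0 h the correlations were 0.0666, 0.259 and 0.418, and the first did not reach it. The main calls come from a model without this pairing, and the block is an alternative. The pairing comes from these correlations, not from the labels.

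The genes, further lists and tests were chosen with earlier results of these data known. Any of the 52 genes may be named; per-array values are given for the called genes with the largest change at 6 h or 18 h in each pathway and for isozymes, and of the 77 further genes the 6 with the largest called change at 18 h are named. Alternatives were no background correction, offset 50, 75th percentile scaling, cyclic loess, the authors' normalized values, no detection filter, a filter at all 12 arrays, the mean of the probes, array weights, only the groups compared, the replicate number as a block, and each array left out.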

Additional observations from a re-analysis of the deposited data

How the results depend on the processing

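No called change against 0 h turned its sign. Of the calls, 1 of 2 at 2 h (Rpia), 7 of 17 at 6 h, 6 of 15 at 18 h, 0 of 2 at 6 h against 2 h and 1 of 6 at 18 h against 6 h (Pdk3) were made under every alternative run. With each array left out in turn, the count of called genes was 1 to 3 at 2 h, 9 to 17 at 6 h (9 without 6 h replicate 1), 11 to 16 at 18 h, 0 to 3 at 6 h against 2 h, 1 to 7 at 18 h against 6 h and 15 to 20 over all times, and that of isozyme pairs was 0 to 4. At 2 h it was 1 without 0 h replicate 3 or any single 2 h array. At 6 h against 2 h limma called 0 without 2 h replicate 1 or 3 or 6 h replicate 1 or 2, 1 without 2 h replicate 2, 0 with the mean of the probes and 8 with array weights. At 18 h against 6 h it was 3 under 75th percentile scaling and without 6 h replicate 2, and 1 without 6 h replicate 1 or 3 or 18 h replicate 2. The isozyme count was 1 without 2 h replicate 1 or 2. Over all 11445 genes, leaving out each array gave 144 to 559 calls at 2 h, where all arrays gave 395. At 6 h it gave 2575 (without 6 h replicate 1) to 3850, beside 3591, and at 18 h 3187 to 4409, beside 4200. At 6 h against 2 h it gave 536 to 1824, beside 1502, and 2859 calls were made with array weights. At 18 h against 6 h it gave 535 to 1573, beside 1287, and over all times 4260 to 5148, beside 5045. Ldha, Dld and Suclg1 at 6 h and Pfkm, Pgam1, Cs and Sdhc at 18 h passed without background correction. The cause of these differences was not tested. Signal over background limits Sucla2, Pfkfb3, Ldhb and Slc16a3, each not detected on some arrays.

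With the replicate number as a block, the counts were 4 in place of 2 at 2 h, 19 in place of 17 at 6 h, 6 in place of 2 at 6 h against 2 h and 9 in place of 6 at 18 h against 6 h. At 18 h against 0 h, where the correlation of replicate 1 did not reach 0.1, the block gave 19 in place of 15. For these genes the block lost no call and turned none. Over all genes the block gave 763 calls in place of 395 at 2 h and 4386 in place of 3591 at 6 h. It gave 2248 in place of 1502 at 6 h against 2 h and 2112 in place of 1287 at 18 h against 6 h. At 18 h against 0 h it gave 4959 in place of 4200.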

Other observations

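The array labelled replicate 2 was the highest of its group in all 4 groups for 7 of the 17 glycolysis genes tested (41.2%), namely Slc2a1, Slc2a3, Pfkl, Tpi1, Gapdh, Pgk1 and Ldha, against 593 of all 11445 genes (5.18%). Of the 17 TCA cycle genes it was so for 1, Dlst. Replicates have no order and the labels do not say what a shared number stands for.

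Among the further pathway genes, 3 more were singled out after their values were seen. Suclg2, the GTP-forming partner of Suclg1 in succinyl-CoA ligase, had log2 changes of -0.54 (SE 0.16, adjusted p = 0.0222) at 6 h and -1.03 (SE 0.16, adjusted p = 0.000391) at 18 h, where Suclg1 changed by 0.62. Its 6 h call was lost without replicate 3 at 0 h or replicate 1 or 2 at 6 h (adjusted p = 0.0893, 0.0855 and 0.082). Pdp2, the second phosphatase of pyruvate dehydrogenase, changed by 0.75 (SE 0.17, adjusted p = 0.0282) at 2 h, 0.66 (SE 0.17, adjusted p = 0.00992) at 6 h and 0.15 (SE 0.17, adjusted p = 0.536) at 18 h; the 2 h call was lost without replicate 1 or 3 at 0 h or replicate 1 or 3 at 2 h (adjusted p = 0.0645 to 0.119), and both calls with the mean of its probes (adjusted p = 0.187 at 2 h and 0.118 at 6 h). Pfkfb2, which like Pfkfb4 sets the activator of phosphofructokinase, changed by 1.19 (SE 0.17, adjusted p = 0.0042) at 2 h, 1.54 (SE 0.17, adjusted p = 5.4e-05) at 6 h and 0.90 (SE 0.17, adjusted p = 0.00126) at 18 h. These values are limma's, with Benjamini-Hochberg adjustment over all 11445 genes.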
